A study of Mus musculus with 18 samples.

Results

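Interferon-beta, the receptor that binds it, the Janus kinases and a set of the STAT transcription factors were described in bone marrow-derived macrophages (BMDMs). These were 9 genes (Ifnb1, Ifnar1, Ifnar2, Jak1, Jak2, Tyk2, Stat2, Stat3 and Stat5a) of the 50600 in the deposited count table, taken by matching the Ensembl identifier of each row to its gene symbol. Bone marrow of WT mice and of mice without IRF5 (IRF5 KO) was cultured in GM-CSF for 8 days, and the cells were pretreated for 1 h with 3.5 μM defactinib, an inhibitor of the kinases FAK and PYK2, or with its vehicle DMSO. LPS, the bacterial cell wall component sensed by TLR4, was then added at 100 ng/ml for 2 h. Each genotype thus had an unstimulated group, a group with LPS and DMSO (called LPS DMSO) and a group with LPS and defactinib (LPS defactinib), which made 6 groups of 3 libraries. The labels list DMSO for the unstimulated groups, while the column names mark them as untreated. Defactinib without LPS was not analysed here. The labels give neither strain, age nor sex. The study's methods name male C57BL/6J mice as the animals bought, without tying them to these libraries, and call replicates biological, such as mice or cells. Since no source ties each library to a separate animal, p-values measure the spread between these libraries, which may be partly technical.

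Interferon-beta is secreted soon after LPS reaches TLR4 and is made through IRF and NF-κB factors that bind a compact promoter. It acts back on the same and neighbouring cells through a receptor of the chains IFNAR1, which carries TYK2, and IFNAR2, which carries JAK1. These kinases activate STAT2, which together with a partner STAT and IRF9 turns on the interferon-stimulated genes. JAK2 serves the receptors of GM-CSF and interferon-gamma, STAT3 is the main transcription factor downstream of IL-6 and IL-10, and STAT5A is activated by GM-CSF.

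The promoter sequences are shown for the 3 members in which a searched motif was found. All 9 members had a RefSeq window on GRCm38.p6 (Stat5a had 2), and the 250 bases before each annotated start were searched on both strands. Capitals mark the matched letters, and each stretch runs 5′ to 3′ on the strand of the gene, from 20 bases before its first match to 20 bases after its last.
Ifnb1, chr4:88522851-88523024, minus strand: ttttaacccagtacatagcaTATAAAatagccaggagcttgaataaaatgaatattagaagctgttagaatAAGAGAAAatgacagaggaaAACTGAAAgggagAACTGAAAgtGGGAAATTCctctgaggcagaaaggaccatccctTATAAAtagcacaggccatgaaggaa
Stat2, chr10:128270256-128270309, plus strand: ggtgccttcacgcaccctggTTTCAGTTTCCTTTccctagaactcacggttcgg
Ifnar2, chr16:91372549-91372597, plus strand: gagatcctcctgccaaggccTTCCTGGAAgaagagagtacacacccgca

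In the Ifnb1 stretch the letters AANNGAAA, the half-site of IRF factors, matched 3 times on the strand of the gene, with the nearest match to the start at -126 to -119. The kappa B letters GGGANNTTC matched right after it, at -116 to -108. The TATA box letters TATAAA matched at -82 to -77 and at -210 to -205. In Stat2 the core of the interferon-stimulated response element, GAAANNGAA, matched on the opposite strand at -221 to -213, and both matches of AANNGAAA there overlapped it. In Ifnar2 the GAS letters TTCNNNGAA, which read the same on both strands, matched at -214 to -206. The AP-1 letters TGANTCA were not found in any of the 10 member windows, and none of the searched letters were found in those of Ifnar1, Jak1, Jak2, Tyk2, Stat3 and Stat5a. Of the 32851 windows of all genes, 21.3% held AANNGAAA, 12.4% TATAAA, 7.13% GAAANNGAA, 7.02% TTCNNNGAA, 6.75% TGANTCA and 3.23% GGGANNTTC. The half-site AANNGAAA was added to the search after the Ifnb1 sequence had been read. A match is a description of letters and not a bound site.

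Counted read pairs per library ranged from 39282181 to 61949143. Irf5 itself was counted at 335 to 435 CPM (counts scaled to library size by TMM) in the IRF5 KO libraries and 213 to 650 CPM in the WT libraries, so the counts of the gene as a whole do not check the knockout. The 8 macrophage markers were counted in every group and summed to 12129 to 12352 CPM in WT unstimulated, 11741 to 12441 CPM with LPS and DMSO and 13493 to 17330 CPM with LPS and defactinib. The sums in IRF5 KO were 12050 to 16532, 11398 to 14701 and 20269 to 21243 CPM in the same order, so that unstimulated and LPS DMSO libraries overlapped in both genotypes and the defactinib libraries lay above both. The 6 markers of T, B and NK cells summed to at most 0.505 CPM. The 5 markers of plasmacytoid dendritic cells, which are strong producers of type I interferon, summed to 11.6 to 56.4 CPM, and Siglech, a defining marker among them, had no count in IRF5 KO cells after LPS. The sum of those 5 markers was higher in IRF5 KO (29.1 to 56.4 CPM) than in WT libraries (11.6 to 20.7 CPM), while Siglech had counts in both WT LPS groups. The 5 mast cell and basophil markers summed to 0.65 to 5.14 CPM in WT and 27.4 to 52.2 CPM in IRF5 KO libraries. The 5 dendritic cell markers summed to 94.9 to 113 CPM in WT LPS DMSO and 37.3 to 44.3 CPM in WT LPS defactinib, against 63.9 to 76.5 and 84 to 88.6 CPM in the same groups of IRF5 KO. The 6 neutrophil markers summed to 9.72 to 13.7 CPM in WT unstimulated, 21.9 to 45.3 CPM in WT LPS DMSO and 11 to 34.3 CPM with defactinib, and to 14 to 18.1, 24.9 to 43 and 18.3 to 19.9 CPM in these groups of IRF5 KO. The mitochondrial share of counts was 1.05 to 1.26% over the WT LPS defactinib libraries and 0.477 to 0.926% in the other groups. The part of these markers and of the mitochondrial share in the results was not tested. IRF5 KO LPS DMSO replicate 3 stood apart from its group, and the labels do not say whether it was handled differently, so that group's values hold only as far as its label does. The chi-square per gene, which is 1 under sampling noise, was 2.33 between replicates 1 and 2 and 441 and 425 between these and replicate 3. WT LPS defactinib replicate 3 differed from replicates 1 and 2 by 140 and 183, against 84.1 between those. The non-coding transcript Gm26917 took 2.57%, 2.56% and 0.0125% of the counts in IRF5 KO LPS DMSO replicates 1, 2 and 3, 2.18 to 4.15% over the WT LPS defactinib libraries, 1.06 to 1.7% over those of IRF5 KO LPS defactinib, and 0.0154% or less elsewhere. Many of the results are therefore also given without one of these libraries.

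Each gene was tested in a single edgeR fit of all 18 libraries, and it passed at an adjusted p below 0.05 over the 15663 genes tested, which included all 9 members. Ifnb1 had at most 1 count in any unstimulated library and was tested because of its level in the LPS groups, so comparisons with unstimulated cells are counted here over the other 8 members. LPS raised 6 of these 8 in WT cells (Ifnar2, Jak1, Jak2, Stat2, Stat3 and Stat5a), while 20.6% of all tested genes rose and 21.2% fell. Of these, 3 (Stat2, Stat3 and Stat5a) also moved more than 2-fold, against 21.3% of all genes in either direction. In IRF5 KO cells LPS raised Jak1, Jak2 and Stat5a, as 18.5% of all genes rose, and lowered Ifnar1, as 19% fell. There, Ifnar1 alone of the 8 passed 2-fold, as did 13.3% of all genes. Without IRF5 KO LPS DMSO replicate 3, Tyk2 passed as higher and Stat5a did not pass.

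Defactinib lowered 7 of the 9 members in LPS-stimulated WT cells, all but Jak1 and Tyk2, when 28.6% of all genes fell. It raised 1, Tyk2, when 28.4% of all genes rose. A fall of more than 2-fold was seen for Ifnb1, Ifnar1, Stat2 and Stat5a, and 29.1% of all genes passed 2-fold in either direction. Without WT LPS defactinib replicate 3, Jak1 fell too. In IRF5 KO cells no member passed by edgeR with defactinib, where 1.87% of all genes rose, 1.49% fell and 0.919% passed 2-fold. There, 3 members had an unadjusted p below 0.05 and DESeq2 passed 2 (Ifnar2 and Stat2). Without IRF5 KO LPS DMSO replicate 3, Ifnar1 and Ifnar2 rose with defactinib in these cells.

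Ifnb1 could not be compared between unstimulated WT and IRF5 KO cells, at 1 count in each group. None of the other members passed by edgeR or by DESeq2, with 1 (Jak2) at an unadjusted p below 0.05. Of all genes, 7.93% were higher in WT, 7.37% lower and 7.31% different by more than 2-fold. After LPS with DMSO, 7 members, all but Jak1 and Tyk2, had higher levels in WT, against 25.3% of all genes. Tyk2 was lower in WT, as were 26.9% of all genes, and 5 members (Ifnb1, Ifnar1, Stat2, Stat3 and Stat5a) differed more than 2-fold, as did 25.8%. After LPS with defactinib, Stat2 was higher in WT (18.3% of all genes), Ifnar2, Jak1 and Stat5a were lower (18%), and Stat2 alone of the members passed 2-fold (17.3%). The comparisons with WT LPS DMSO or IRF5 KO LPS DMSO on one side share those libraries and are not independent.

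Compared with unstimulated cells, WT cells given LPS with defactinib were higher in Jak1 and Tyk2 (25.9% of all genes were higher) and lower in Ifnar1 (27.4% were lower). Ifnar1 passed 2-fold there, as did 24.9% of all genes. In IRF5 KO cells LPS with defactinib went with higher Ifnar2, Jak1 and Jak2 (25.4% of all genes) and lower Ifnar1 and Stat2 (28.0%), with Ifnar1 and Stat2 past 2-fold (24%).

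**Figure D1:**
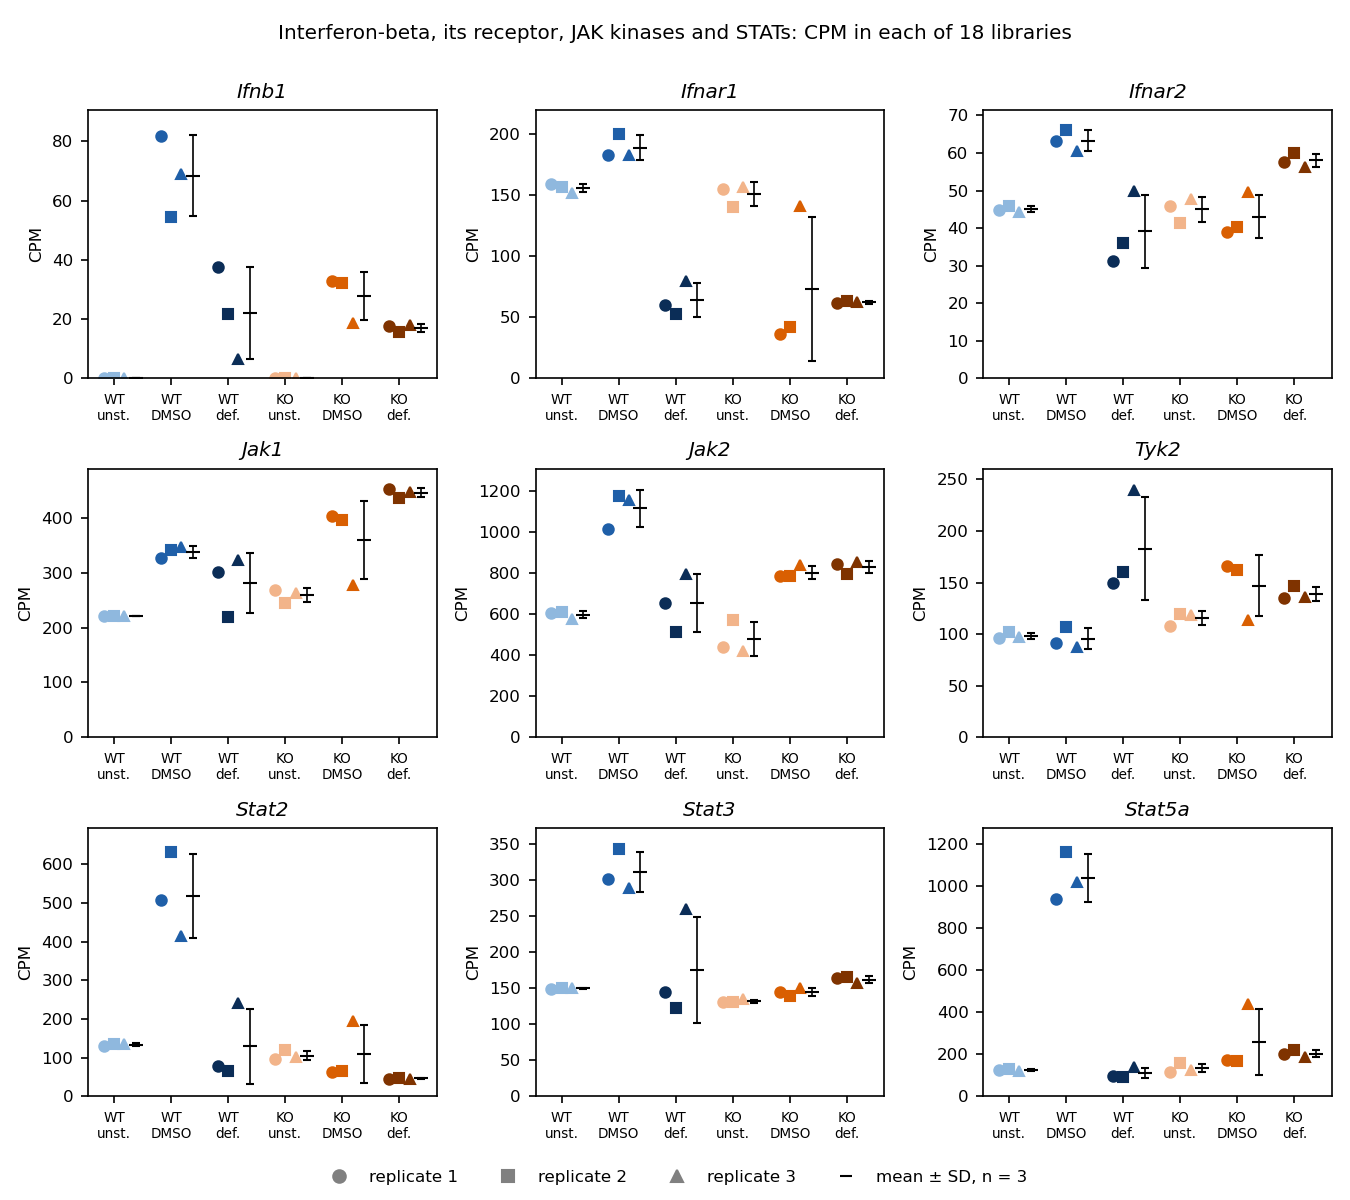
CPM of the 9 members in each library (vertical axes, starting at 0) by group (horizontal axes; unst., unstimulated; DMSO and def., LPS with DMSO or defactinib; KO, IRF5 KO), with symbols for replicates and black marks for mean ± SD (n = 3). Stat5a sits between 939 and 1161 CPM in WT LPS DMSO and between 93.2 and 441 CPM in every other library, and IRF5 KO LPS DMSO replicate 3 lies away from replicates 1 and 2 for Ifnar1, Stat2 and Stat5a.

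The ligand gene Ifnb1 (ENSMUSG00000048806, mm10 chromosome 4, 88522025 to 88522774, minus strand) had 1 count in all 3 unstimulated WT libraries together and 1 count in all 3 unstimulated IRF5 KO libraries. After LPS with DMSO it was at 81.9, 54.5 and 69.1 CPM in WT replicates 1, 2 and 3 and at 32.8, 32.2 and 18.6 CPM in IRF5 KO. Every LPS library of WT lay above every LPS library of IRF5 KO, and all 6 lay above the unstimulated libraries. The ratio of LPS to unstimulated was 11100 in WT (8379 counts against 1; exact binomial 95% interval 1992 to 438470) and 4512 in IRF5 KO (3515 counts against 1; 809 to 178267). These intervals cover counting error only. No test of LPS against unstimulated is given for Ifnb1, since only the LPS groups brought it past the filter on low counts. In bulk RNA, fewer cells that make a transcript and less of it per cell cannot be told apart.

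After LPS with DMSO, Ifnb1 was 2.46-fold higher in WT (log2 difference 1.30, standard error 0.42, adjusted p = 0.0175 from edgeR). This passed in 16 of the 18 fits that each left out 1 library. It did not pass without WT LPS DMSO replicate 1 (1.14, adjusted p = 0.0588) or without replicate 3 of IRF5 KO LPS DMSO (1.08, adjusted p = 0.0615). With defactinib Ifnb1 was at 37.7, 21.8 and 6.42 CPM in WT and at 17.6, 15.6 and 18 CPM in IRF5 KO. In both genotypes these values lay below all DMSO libraries, and the WT libraries spread much more widely than the IRF5 KO libraries. Ifnb1 fell 3.11-fold with defactinib in WT (log2 fold change -1.64, standard error 0.42, adjusted p = 0.00415), by -2.23 without WT LPS defactinib replicate 1 and by -1.19 without replicate 3. In IRF5 KO cells its log2 fold change was -0.70 (standard error 0.42, adjusted p = 0.323), and the difference between the genotypes in this response did not pass (-0.93, adjusted p = 0.229) except without WT LPS defactinib replicate 1 (-1.51, adjusted p = 0.0361). With defactinib, WT and IRF5 KO differed by 0.36 (adjusted p = 0.525), and by 0.81 (adjusted p = 0.027) without WT LPS defactinib replicate 3. Ifnb1 stayed far above the unstimulated level with defactinib, at a ratio of 3621 in WT (interval 649 to 143081) and 2851 in IRF5 KO (511 to 112664).

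The 20 other interferon genes of the annotation together had low counts. They summed to 392, 275 and 308 counts in WT LPS DMSO, 94, 35 and 13 in WT LPS defactinib, 104, 117 and 65 in IRF5 KO LPS DMSO and 75, 69 and 50 in IRF5 KO LPS defactinib. The unstimulated libraries held 0 to 6 counts over all 20. The 6 that passed the filter on low counts, all interferon-alpha genes, had no count in any unstimulated library and so entered through the LPS groups, and no count of calls is given for them. Ifna9, the most abundant of them in WT LPS DMSO, was at 2.62, 2.64 and 2.03 CPM there, far below Ifnb1 in the same libraries. Interferon-alpha genes are near-identical copies, and counting of uniquely mapped pairs can leave out or misplace their reads.

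The receptor chain gene Ifnar1 (ENSMUSG00000022967, chromosome 16, 91485238 to 91507441, plus strand) was at 159, 157 and 152 CPM in unstimulated WT and at 155, 140 and 157 CPM in unstimulated IRF5 KO. It was at 183, 200 and 183 CPM in WT LPS DMSO and at 36, 41.8 and 141 CPM in IRF5 KO LPS DMSO. Replicate 3 of the latter was inside the unstimulated range, while replicates 1 and 2 were below every other library of the study. With defactinib Ifnar1 was at 60.3, 52.9 and 79.6 CPM in WT and at 61.4, 63.7 and 62.2 CPM in IRF5 KO. All 6 of these libraries were below all 6 unstimulated libraries. The log2 change with LPS in WT was 0.28 (standard error 0.35, adjusted p = 0.568), or 0.28 with an adjusted p of 0.0467 in the fit without IRF5 KO LPS DMSO replicate 3. A fall by 1.05 on the log2 scale (standard error 0.36, adjusted p = 0.032) was seen in IRF5 KO, and by 1.96 without replicate 3 (adjusted p = 2.48e-09). That call held in 13 of the 18 fits without 1 library and was lost without IRF5 KO unstimulated replicate 1 (-1.03), 2 (-1.10) or 3 (-1.02), and without replicate 1 (-0.71) or 2 (-0.76) of IRF5 KO LPS DMSO, at adjusted p-values of 0.0574 to 0.143. The LPS response of WT exceeded that of IRF5 KO by 1.33 (adjusted p = 0.08), and it passed without IRF5 KO LPS DMSO replicate 3 (2.23, adjusted p = 2.1e-08).

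Defactinib lowered Ifnar1 2.94-fold in WT (log2 fold change -1.56, standard error 0.36, adjusted p = 0.00196), to a level 2.42-fold below unstimulated WT (-1.28, standard error 0.36, adjusted p = 0.00801). The effect of defactinib in IRF5 KO was -0.22 (adjusted p = 0.741) with all libraries and turned to 0.68 (adjusted p = 0.00438) without IRF5 KO LPS DMSO replicate 3. LPS with defactinib left Ifnar1 2.42-fold below unstimulated in IRF5 KO (-1.27, standard error 0.36, adjusted p = 0.0078), a comparison without the LPS DMSO libraries, though the spread came from all 18. Ifnar1 was 2.59-fold higher in WT than in IRF5 KO after LPS with DMSO (log2 difference 1.37, standard error 0.36, adjusted p = 0.00524; 2.28 without IRF5 KO replicate 3) and did not pass with defactinib (0.04, adjusted p = 0.939).

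Ifnar2 (ENSMUSG00000022971, chromosome 16, 91372783 to 91405589, plus strand), the chain that carries JAK1, moved less. It was at 44.9, 45.8 and 44.3 CPM in unstimulated WT, 63.1, 66.2 and 60.5 CPM in WT LPS DMSO and 31.3, 35.9 and 50 CPM in WT LPS defactinib. IRF5 KO libraries were at 46, 41.3 and 47.7 CPM unstimulated, 39, 40.4 and 49.6 CPM with LPS and DMSO, and 57.7, 59.9 and 56.3 CPM with LPS and defactinib. WT LPS DMSO and IRF5 KO LPS defactinib were thus the groups with the highest values. In WT, Ifnar2 rose by 0.49 with LPS (standard error 0.14, adjusted p = 0.00887) and fell by 0.69 with defactinib (standard error 0.14, adjusted p = 0.000573). In IRF5 KO its change with LPS was -0.06 (adjusted p = 0.733), and the difference between the genotypes in that response was 0.56 (adjusted p = 0.0608), which passed without WT LPS defactinib replicate 1 (0.54, adjusted p = 0.0362) or 3 (0.54, adjusted p = 0.0152) or IRF5 KO LPS DMSO replicate 3 (0.67, adjusted p = 0.00599). With defactinib it was 0.43 (standard error 0.14, adjusted p = 0.0848), all 3 libraries being above those with DMSO, and 0.55 (adjusted p = 0.0222) without IRF5 KO LPS DMSO replicate 3. It passed there as well without WT LPS defactinib replicate 3 (0.42, adjusted p = 0.0288). The response to defactinib differed between the genotypes (-1.13, standard error 0.20, adjusted p = 0.000362). After LPS with defactinib, Ifnar2 was lower in WT than in IRF5 KO (-0.57, standard error 0.14, adjusted p = 0.0044), the opposite of the difference with DMSO (0.56, standard error 0.14, adjusted p = 0.00355). Against unstimulated IRF5 KO cells, LPS with defactinib raised it by 0.37 (standard error 0.14, adjusted p = 0.0348), a call that was lost without any 1 of the 6 libraries compared (0.31 to 0.41, adjusted p = 0.0504 to 0.126). In WT the same comparison gave -0.20 (adjusted p = 0.225), and Ifnar2 fell by 0.40 (adjusted p = 0.00851) without WT LPS defactinib replicate 3. Ifnar2 overlaps Gm21970 on the same strand, so reads in the shared part are uncertain.

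**Figure D2:**
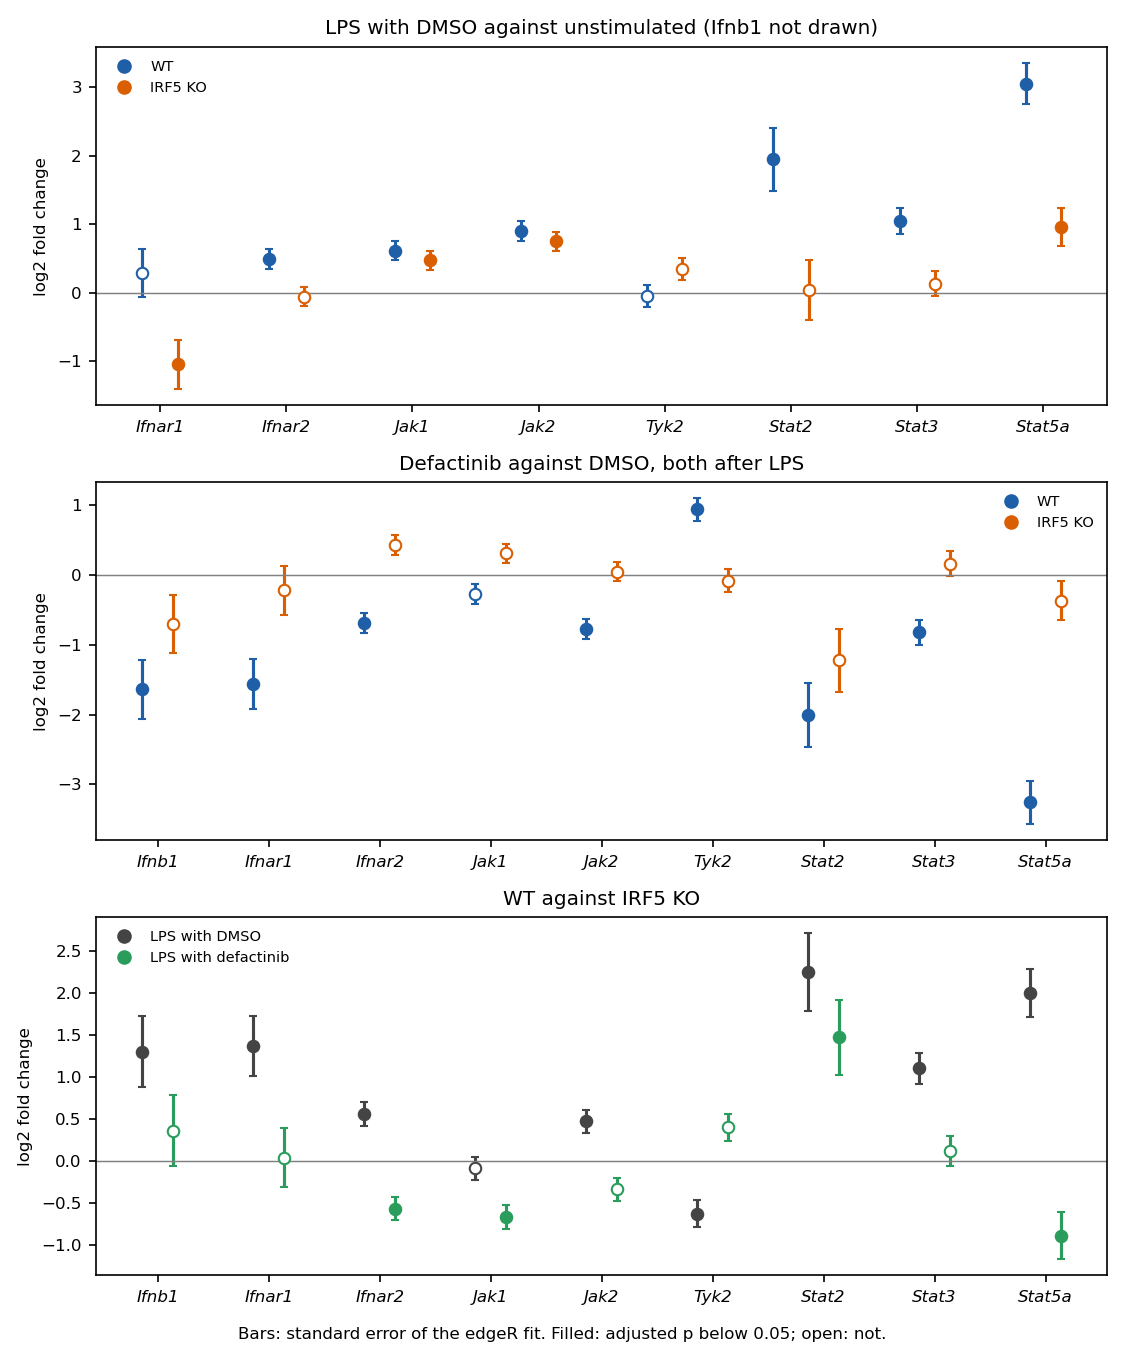
Log2 fold changes of the members (vertical axes) with standard errors from the edgeR fit, for LPS, for defactinib and for WT against IRF5 KO (panels from top to bottom). Filled points passed at an adjusted p below 0.05: with defactinib 8 of the 9 members are filled in WT and none in IRF5 KO. Ifnb1 is not drawn for LPS because its unstimulated groups held 1 count each.

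Among the kinases, Jak1 (ENSMUSG00000028530, chromosome 4, 101152367 to 101265282, minus strand), which is carried by IFNAR2, was at 221 CPM in each of the 3 unstimulated WT libraries. It was at 327, 341 and 347 CPM in WT LPS DMSO and at 301, 219 and 323 CPM in WT LPS defactinib. The IRF5 KO values were 268, 245 and 264 CPM unstimulated, 403, 397 and 277 CPM with LPS and DMSO, and 453, 437 and 447 CPM with LPS and defactinib. LPS raised Jak1 by 0.61 in WT (standard error 0.14, adjusted p = 0.00194) and by 0.47 in IRF5 KO (standard error 0.14, adjusted p = 0.0168). The latter was 0.63 without IRF5 KO LPS DMSO replicate 3 and did not pass without IRF5 KO LPS DMSO replicate 1 (0.40, adjusted p = 0.0714) or 2 (0.41, adjusted p = 0.0662) or IRF5 KO unstimulated replicate 2 (0.43, adjusted p = 0.0579). With defactinib its change was -0.27 in WT (standard error 0.14, adjusted p = 0.107) and 0.31 in IRF5 KO (standard error 0.14, adjusted p = 0.186). The WT change passed without WT LPS defactinib replicate 3 (-0.37, adjusted p = 0.0352) or IRF5 KO LPS DMSO replicate 3 (-0.27, adjusted p = 0.0271). With defactinib Jak1 was lower in WT than in IRF5 KO, with no overlap (-0.67, standard error 0.14, adjusted p = 0.00139). Against unstimulated cells, LPS with defactinib raised Jak1 1.72-fold in IRF5 KO (log2 fold change 0.78, standard error 0.14, adjusted p = 0.000377). In WT that change was 0.35 (adjusted p = 0.0449) and passed in 10 of the 18 fits without 1 library, failing without any 1 of the 6 unstimulated libraries of either genotype or WT LPS defactinib replicate 1 or 3 (0.24 to 0.34, adjusted p = 0.0547 to 0.147). Jak1 overlaps Gm12785 on its own strand.

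Jak2 (ENSMUSG00000024789, chromosome 19, 29251828 to 29313080, plus strand), the kinase of the GM-CSF receptor, was the most abundant member per kilobase in all 6 groups. It was at 606, 613 and 578 CPM in unstimulated WT, 1014, 1176 and 1160 CPM in WT LPS DMSO and 657, 513 and 797 CPM in WT LPS defactinib. Its IRF5 KO values were 439, 573 and 423 CPM unstimulated, 785, 785 and 841 CPM with DMSO and 844, 798 and 855 CPM with defactinib. IRF5 KO LPS DMSO replicate 3 was close to its group for Jak2. Unstimulated WT and IRF5 KO cells differed by 0.32 (adjusted p = 0.138), which passed without IRF5 KO unstimulated replicate 2 (0.47, adjusted p = 0.0419). LPS raised Jak2 by 0.90 in WT (standard error 0.14, adjusted p = 8.03e-05) and by 0.75 in IRF5 KO (standard error 0.14, adjusted p = 0.00196). Defactinib lowered it 1.7-fold in WT (log2 fold change -0.77, standard error 0.14, adjusted p = 0.000255). The change in IRF5 KO was 0.05 (standard error 0.14, adjusted p = 0.86), and the responses to defactinib differed between the genotypes (-0.82, standard error 0.19, adjusted p = 0.00391). After LPS with DMSO, Jak2 was 1.39-fold higher in WT (log2 difference 0.47, standard error 0.14, adjusted p = 0.00953). With defactinib the difference was -0.34 (adjusted p = 0.0617) and passed without WT LPS defactinib replicate 3 (-0.49, adjusted p = 0.00812), IRF5 KO LPS DMSO replicate 3 (-0.35, adjusted p = 0.0352) or IRF5 KO unstimulated replicate 2 (-0.35, adjusted p = 0.0401). Against unstimulated IRF5 KO cells it was raised 1.74-fold by LPS with defactinib (0.80, standard error 0.14, adjusted p = 0.000339), where in WT the change was 0.13 (adjusted p = 0.443).

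Tyk2 (ENSMUSG00000032175, chromosome 9, 21104068 to 21131243, minus strand), the kinase carried by IFNAR1, was the single member that rose with defactinib in WT. It was at 96.3, 102 and 97.3 CPM in unstimulated WT, 91.3, 107 and 87.9 CPM in WT LPS DMSO and 150, 160 and 240 CPM in WT LPS defactinib. In IRF5 KO it was at 108, 120 and 119 CPM unstimulated, 166, 162 and 114 CPM with DMSO and 135, 147 and 136 CPM with defactinib. LPS with DMSO left Tyk2 at -0.05 in WT (standard error 0.16, adjusted p = 0.846). In IRF5 KO the change was 0.35 (adjusted p = 0.0974), and Tyk2 rose by 0.51 (adjusted p = 0.00647) without IRF5 KO LPS DMSO replicate 3 and by 0.37 (adjusted p = 0.0301) without WT LPS defactinib replicate 3. The difference between the genotypes in that response was -0.40 (adjusted p = 0.236), and -0.56 (adjusted p = 0.0281) without IRF5 KO LPS DMSO replicate 3. Defactinib raised Tyk2 1.92-fold in WT (log2 fold change 0.94, standard error 0.16, adjusted p = 0.000193; 0.72 without WT LPS defactinib replicate 3). In IRF5 KO the change was -0.08 (standard error 0.16, adjusted p = 0.802), and the responses differed (1.02, standard error 0.23, adjusted p = 0.00269). After LPS with DMSO, Tyk2 was lower in WT than in IRF5 KO (-0.63, standard error 0.16, adjusted p = 0.00485). With defactinib all 3 WT libraries were above the IRF5 KO libraries, at a difference of 0.40 (adjusted p = 0.0688). That difference passed without WT LPS defactinib replicate 1 (0.56, adjusted p = 0.018) or 2 (0.50, adjusted p = 0.0476) or IRF5 KO LPS DMSO replicate 3 (0.39, adjusted p = 0.0199), while it was 0.17 (adjusted p = 0.373) without WT LPS defactinib replicate 3. Compared with unstimulated WT, LPS with defactinib raised Tyk2 1.86-fold (0.89, standard error 0.16, adjusted p = 0.000433).

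Of the STATs, Stat2 (ENSMUSG00000040033, chromosome 10, 128270559 to 128292849, plus strand) was at 131, 135 and 136 CPM in unstimulated WT. It was at 508, 631 and 415 CPM in WT LPS DMSO and at 79.2, 65.9 and 241 CPM in WT LPS defactinib. IRF5 KO cells had 96.7, 119 and 101 CPM unstimulated, 63.8, 65.8 and 196 CPM with DMSO and 45.7, 48.2 and 45.8 CPM with defactinib. Replicate 3 was the high library in both WT LPS defactinib and IRF5 KO LPS DMSO, and every WT LPS DMSO library was above all others. LPS raised Stat2 3.87-fold in WT (log2 fold change 1.95, standard error 0.46, adjusted p = 0.0028). In IRF5 KO the change was 0.04 (standard error 0.44, adjusted p = 0.943), or -0.70 (adjusted p = 0.174) without IRF5 KO LPS DMSO replicate 3. The response to LPS differed between the genotypes (1.91, standard error 0.63, adjusted p = 0.0491), or by 2.65 (adjusted p = 0.00229) without that library. Of the 18 fits without 1 library this difference passed in 4: it was lost without any 1 of the 6 unstimulated libraries, the 3 WT LPS DMSO libraries, IRF5 KO LPS DMSO replicate 1 or 2 or any 1 of the 3 IRF5 KO LPS defactinib libraries (1.62 to 2.03, adjusted p = 0.0597 to 0.123).

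Defactinib lowered Stat2 4.02-fold in WT (log2 fold change -2.01, standard error 0.46, adjusted p = 0.00174; -2.82 without WT LPS defactinib replicate 3). In IRF5 KO all 3 defactinib libraries were below all DMSO libraries, with a change of -1.22 (standard error 0.45, adjusted p = 0.123) that was -0.48 (adjusted p = 0.533) without IRF5 KO LPS DMSO replicate 3 and passed without WT LPS defactinib replicate 3 (-1.24, adjusted p = 0.0445) and by DESeq2 (adjusted p = 0.0441). The difference between the genotypes in this response was -0.79 (adjusted p = 0.344), and it passed without IRF5 KO LPS DMSO replicate 3 (-1.53, adjusted p = 0.036) or WT LPS defactinib replicate 3 (-1.58, adjusted p = 0.0211). Stat2 was 4.77-fold higher in WT than in IRF5 KO after LPS with DMSO (log2 difference 2.25, standard error 0.46, adjusted p = 0.000992; 3.00 without IRF5 KO replicate 3). With defactinib it was 2.77-fold higher in WT (1.47, standard error 0.45, adjusted p = 0.0191). This rested on the high replicate 3, since it was 0.66 (adjusted p = 0.184) without it, and it was also lost without IRF5 KO LPS defactinib replicate 1 (1.48, adjusted p = 0.055) or 3 (1.48, adjusted p = 0.0548). In IRF5 KO cells LPS with defactinib left Stat2 2.26-fold below unstimulated (-1.18, standard error 0.45, adjusted p = 0.0375), a call lost without any 1 of the 6 libraries compared (-1.24 to -1.09, adjusted p = 0.058 to 0.0927).

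Stat3 (ENSMUSG00000004040, chromosome 11, 100885098 to 100939540, minus strand) was at 149, 151 and 151 CPM in unstimulated WT, 302, 343 and 290 CPM in WT LPS DMSO and 145, 123 and 260 CPM in WT LPS defactinib. IRF5 KO cells had 131, 131 and 135 CPM unstimulated, 145, 140 and 150 CPM with DMSO and 164, 166 and 157 CPM with defactinib. The IRF5 KO libraries of all 3 groups together thus spanned 131 to 166 CPM, and IRF5 KO LPS DMSO replicate 3 did not stand apart for Stat3. LPS raised Stat3 2.07-fold in WT (log2 fold change 1.05, standard error 0.19, adjusted p = 0.000277). In IRF5 KO the change was 0.13 (standard error 0.18, adjusted p = 0.586). The responses differed by 0.92 (standard error 0.26, adjusted p = 0.025), which passed in 10 of the 18 fits without 1 library. It was lost without WT unstimulated replicate 1, 2 or 3, WT LPS DMSO replicate 2, IRF5 KO unstimulated replicate 1 or 3, or replicate 1 or 2 of IRF5 KO LPS DMSO (0.82 to 0.92, adjusted p = 0.0517 to 0.0703). Defactinib lowered Stat3 1.77-fold in WT (-0.82, standard error 0.18, adjusted p = 0.00145; -1.20 without WT LPS defactinib replicate 3). In IRF5 KO the change was 0.16 (standard error 0.18, adjusted p = 0.637), and the responses differed (-0.98, standard error 0.26, adjusted p = 0.00779). After LPS with DMSO, Stat3 was 2.15-fold higher in WT (log2 difference 1.10, standard error 0.19, adjusted p = 0.00019). With defactinib the difference was 0.12 (adjusted p = 0.65) and turned to -0.26 (adjusted p = 0.0295) without WT LPS defactinib replicate 3. Against unstimulated cells, LPS with defactinib gave 0.23 in WT (adjusted p = 0.312; 0.43, adjusted p = 0.0443, without WT LPS defactinib replicate 2) and 0.29 in IRF5 KO (adjusted p = 0.19; 0.29, adjusted p = 0.0044, without WT LPS defactinib replicate 3).

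Stat5a (ENSMUSG00000004043, chromosome 11, 100859351 to 100885169, plus strand) had the largest log2 change of the members with LPS in WT after Ifnb1, and the largest with defactinib in WT. It was at 125, 131 and 121 CPM in unstimulated WT, 939, 1161 and 1018 CPM in WT LPS DMSO and 96.2, 93.2 and 137 CPM in WT LPS defactinib. In IRF5 KO it was at 117, 157 and 127 CPM unstimulated, 171, 168 and 441 CPM with DMSO and 202, 218 and 186 CPM with defactinib. Its WT libraries with LPS and defactinib lay around the unstimulated level, and among the IRF5 KO libraries replicate 3 with DMSO was the highest. LPS raised Stat5a 8.26-fold in WT (log2 fold change 3.05, standard error 0.30, adjusted p = 1.41e-06) and 1.95-fold in IRF5 KO (0.96, standard error 0.28, adjusted p = 0.018). The IRF5 KO rise was 0.34 (adjusted p = 0.0555) without IRF5 KO LPS DMSO replicate 3, and it was lost as well without IRF5 KO unstimulated replicate 1 (0.88, adjusted p = 0.0652) or 3 (0.92, adjusted p = 0.0599). The response to LPS differed between the genotypes by 2.08 (standard error 0.40, adjusted p = 0.00313), and by 2.70 when replicate 3 of IRF5 KO LPS DMSO was left out.

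Defactinib lowered Stat5a 9.56-fold in WT (log2 fold change -3.26, standard error 0.31, adjusted p = 7.03e-07). In IRF5 KO the change was -0.37 (standard error 0.28, adjusted p = 0.458), or 0.25 (adjusted p = 0.329) without IRF5 KO LPS DMSO replicate 3, and the responses differed by -2.89 (standard error 0.41, adjusted p = 6.35e-05; -3.51 without that library). Stat5a was 3.99-fold higher in WT than in IRF5 KO after LPS with DMSO (log2 difference 2.00, standard error 0.29, adjusted p = 5.86e-05; 2.61 without IRF5 KO replicate 3). With defactinib the order was the opposite, and Stat5a was 1.86-fold lower in WT (-0.89, standard error 0.28, adjusted p = 0.0223), with no overlap between the libraries. That call held in 14 of the 18 fits without 1 library and was lost without WT LPS defactinib replicate 1 (-0.78) or 2 (-0.78) or IRF5 KO LPS defactinib replicate 1 (-0.87) or 2 (-0.82), at adjusted p-values of 0.059 to 0.0852. Against unstimulated IRF5 KO cells, LPS with defactinib changed it by 0.60 (adjusted p = 0.0869), and it rose by 0.59 (adjusted p = 0.000938) without IRF5 KO LPS DMSO replicate 3. Stat3 and Stat5a overlap at their ends on opposite strands, and the counting was stranded.

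The difference of responses between the genotypes to LPS passed for 3 members (Stat2, Stat3 and Stat5a), all larger in WT, where 9.77% of all genes had a higher and 7.35% a lower value in WT. Of these, 2 passed 2-fold (9.83% of all genes). By DESeq2 the difference in the response to LPS passed for Ifnar1 and Ifnar2 as well. The difference in the response to defactinib passed for 7 members: it was lower in WT for Ifnar1, Ifnar2, Jak1, Jak2, Stat3 and Stat5a (18.5% of all genes) and higher for Tyk2 (18.4%), and 4 passed 2-fold (22.8%). For Ifnar1 this difference was -1.33 (standard error 0.50, adjusted p = 0.0485). It was -2.24 (adjusted p = 1e-08) without IRF5 KO LPS DMSO replicate 3 and passed in 2 of the 18 fits without 1 library, the other being without WT LPS defactinib replicate 3 (-1.48, adjusted p = 0.0435). In the other 16 it was -1.33 to -0.97 (adjusted p = 0.061 to 0.114). For Jak1 it was -0.58 (standard error 0.19, adjusted p = 0.0286), and it was lost without replicate 2 or 3 of WT LPS DMSO, replicate 2 of WT LPS defactinib or IRF5 KO LPS defactinib replicate 1 or 3 (-0.55 to -0.41, adjusted p = 0.0579 to 0.0724). The libraries with over 1% of counts on Gm26917 include all WT LPS defactinib libraries and none of WT LPS DMSO, and their part in these differences was not tested.

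**Figure D3:**
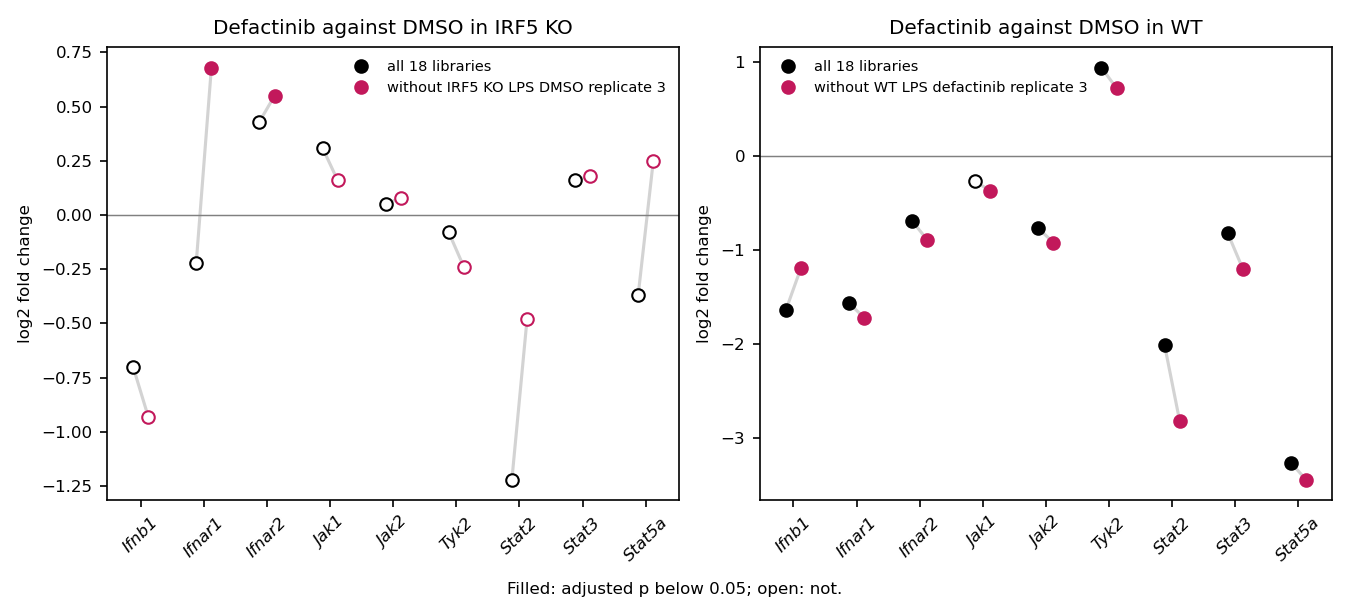
Log2 fold change of each member with defactinib (vertical axes) in IRF5 KO (left) and WT (right), from all 18 libraries (black) and without the library that stood apart (red); filled points passed at an adjusted p below 0.05. In IRF5 KO, Ifnar1 moves from -0.22 to 0.68 and Stat2 from -1.22 to -0.48, while in WT all 8 calls keep their direction and Stat2 moves from -2.01 to -2.82.

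Levels of different genes were compared as FPKM, the TMM-scaled CPM per kilobase of exon. In unstimulated WT cells the order was Jak2 (119 ± 3.7 FPKM, SD, n = 3), Jak1 (30.6 ± 0.0292), Ifnar1 (26.5 ± 0.605), Stat2 (22.6 ± 0.457), Stat5a (17.6 ± 0.678), Stat3 (15.8 ± 0.0961), Tyk2 (14.4 ± 0.44), Ifnar2 (13.5 ± 0.239) and Ifnb1 (0.00752 ± 0.013). No neighbours in this order overlapped between libraries. In WT LPS DMSO the order became Jak2 (222 ± 17.7), Stat5a (146 ± 15.8), Ifnb1 (91.3 ± 18.3), Stat2 (87.4 ± 18.3), Jak1 (46.8 ± 1.47), Stat3 (32.7 ± 2.92), Ifnar1 (32.1 ± 1.7), Ifnar2 (19 ± 0.864) and Tyk2 (13.9 ± 1.48). Here Ifnb1 overlapped with Stat2 and Stat3 with Ifnar1. Stat5a went from the fifth to the second place and Tyk2 to the last. In WT LPS defactinib only Jak2, at 130 ± 28.2, was apart from its neighbour, and every other neighbouring pair overlapped. In unstimulated IRF5 KO the levels ran from Jak2 (95.1 ± 16.4) over Jak1 (35.8 ± 1.73) and Ifnar1 (25.7 ± 1.63) to Ifnb1 (0.00693 ± 0.012), with Stat5a, Stat2 and Tyk2 overlapping in turn and Stat3 overlapping with Ifnar2. In IRF5 KO LPS DMSO every neighbouring pair below Jak2 (160 ± 6.45) overlapped. In IRF5 KO LPS defactinib the order was Jak2 (165 ± 5.92), Jak1 (61.7 ± 1.14), Stat5a (28.3 ± 2.26), Ifnb1 (22.8 ± 1.74), Tyk2 (20.3 ± 0.962), Ifnar2 (17.4 ± 0.553), Stat3 (17 ± 0.517), Ifnar1 (10.6 ± 0.193) and Stat2 (7.85 ± 0.235), with overlap between Ifnb1 and Tyk2 and between Ifnar2 and Stat3.

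**Figure D4:**
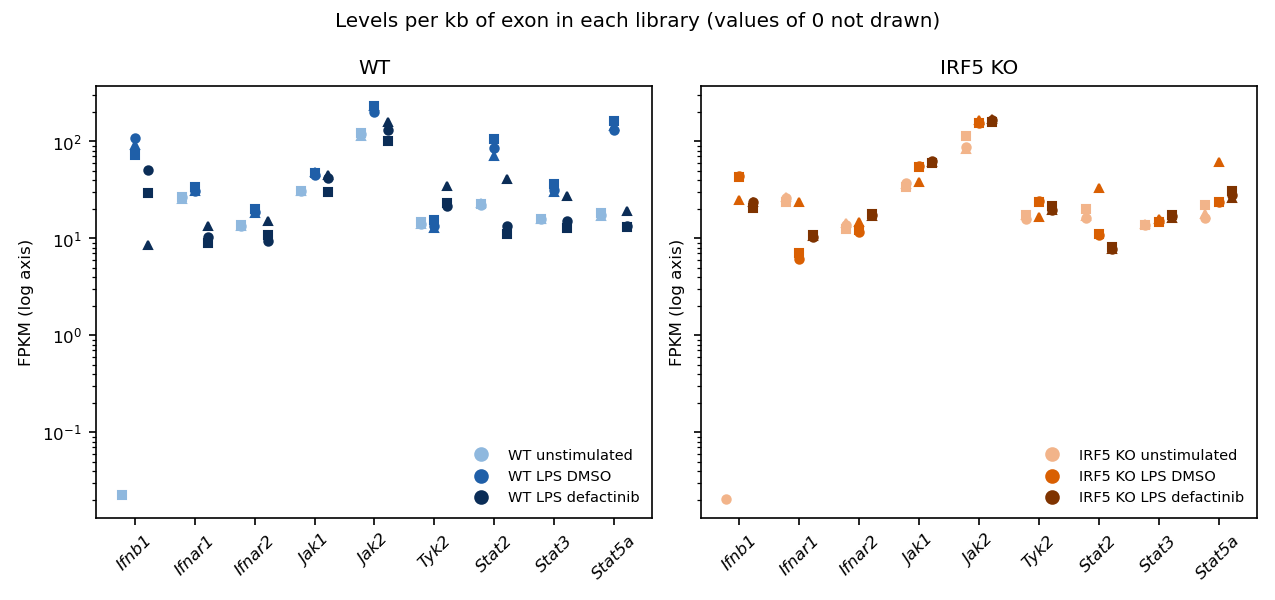
FPKM of each member (log axis) in every WT library (left) and IRF5 KO library (right), coloured by group, with circles, squares and triangles for replicates 1, 2 and 3; values of 0 are not drawn. Jak2 is the highest member in every group, and Ifnb1 lies near 0.02 FPKM in the single unstimulated library of each genotype that held a count.

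The genes whose log2 CPM across all 18 libraries was most like that of a member were listed without a test, since the libraries share 6 group means. For Ifnb1 these were Tagln2 (Pearson r 0.970), Ccrl2 (0.968), Cxcl1 (0.967) and Gadd45b (0.962). For Stat2 they were Tap1 (0.992), Xaf1 (0.985), Mllt6 (0.985) and Eif2ak2 (0.982), and for Stat3 they were Usp25 (0.975), Il12rb2 (0.970), Aida (0.958) and Gm16589 (0.952). Among the members themselves, Stat5a was most like Stat3 and Jak2 (r = 0.82 with each), Stat2 most like Stat3 (0.81), and Ifnar1 most unlike Tyk2 (-0.79).

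All 22 listed targets of the STAT2 complex, the interferon-stimulated genes, rose with LPS in WT (median log2 fold change 4.55, against 0.00 over all tested genes, of which 20.6% rose). With defactinib in WT 18 fell (median -3.72, against 0.09, with 28.6% of all genes), or 22 without WT LPS defactinib replicate 3 (median -4.90). Isg15, a ubiquitin-like modifier, was at 1768, 1704 and 1663 CPM in WT LPS DMSO and at 103, 67.5 and 235 CPM with defactinib (log2 fold change -3.66, adjusted p = 6.44e-05 from edgeR). Ifih1, the sensor of double-stranded RNA, was at 1565, 1850 and 1585 CPM with DMSO and at 37.9, 24.1 and 93.9 CPM with defactinib (-5.00, adjusted p = 0.000125). For both, every WT defactinib library was below every WT DMSO library. Gbp2, an interferon-induced GTPase, was at 1114, 1054 and 861 CPM with DMSO and at 415, 252 and 1198 CPM with defactinib, where replicate 3 lay above all DMSO libraries. Its change was -0.70 (adjusted p = 0.119), and -1.59 (adjusted p = 9.69e-06) without that replicate. In IRF5 KO 11 of the 22 rose with LPS (median 1.63, against 0.01 over all genes, of which 18.5% rose), but without IRF5 KO LPS DMSO replicate 3 only 2 rose, 3 fell and the median was 0.04. In IRF5 KO LPS DMSO replicate 3 Ifih1 was at 440 CPM, against 41.1 and 37.9 CPM in replicates 1 and 2. With defactinib in IRF5 KO the median of the 22 was -1.41 (against -0.04 over all genes) and 1, Mx2, fell, as did 1.49% of all genes, while without IRF5 KO LPS DMSO replicate 3 the median was 0.04. In the fit leaving out WT LPS defactinib replicate 3, a library in neither group compared, 4 of the 22 fell at nearly the same median (-1.42). The share of all genes in that fit is not given. All 22 were higher in WT than in IRF5 KO after LPS with DMSO (median 3.26, against -0.05), where 25.3% of all genes were higher, and all 22 also without IRF5 KO LPS DMSO replicate 3 (median 4.89).

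The listed genes of interferon induction after LPS comprise TLR4, its adaptors and the kinases and factors below them. Of the 16, 9 rose and 1 fell with LPS in WT (median log2 fold change 0.65, against 0.00 over all genes, of which 20.6% rose and 21.2% fell). Without IRF5 KO LPS DMSO replicate 3, a library in neither group compared, 10 rose and 4 fell at the same median. The share of all genes in that fit is not given. With defactinib in WT 12 fell and 1 rose (median -1.27, against 0.09), where 28.6% and 28.4% of all genes did. Nfkb1, the gene of the NF-κB p50 precursor, averaged 1050 ± 23.1 CPM (SD, n = 3) in WT LPS DMSO and 547 ± 175 CPM with defactinib (log2 fold change -0.94, adjusted p = 0.000342). Tank, an adaptor of the kinases that activate IRF3, fell from 317 ± 12.3 to 87.7 ± 16.1 CPM (-1.85, adjusted p = 2.22e-08). Jun, a subunit of AP-1, was the gene that rose, from 37.3 ± 3.58 to 208 ± 78.3 CPM (2.48, adjusted p = 0.00125). In IRF5 KO 4 of the 16 rose and 2 fell with LPS, near the 18.5% and 19% of all genes (4 and 6 without IRF5 KO LPS DMSO replicate 3). The median with defactinib there was -0.09 (against -0.04), and it was 0.21 with 2 genes higher in the fit leaving out IRF5 KO LPS DMSO replicate 3.

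The feedback inhibitors of JAK-STAT signalling were 13 genes, of which 5 rose and 1 fell with LPS in WT (median 0.27, against 0.00, with 20.6% and 21.2% of all genes). Without IRF5 KO LPS DMSO replicate 3, a library in neither group compared, 6 rose and 2 fell at the same median. The share of all genes in that fit is not given. With defactinib in WT 9 fell (median -1.18, against 0.09), as did 28.6% of all genes. Cish, a SOCS family gene induced by STAT5, was at 416, 433 and 390 CPM in WT LPS DMSO and at 53.8, 37.8 and 53.8 CPM with defactinib (log2 fold change -3.09, adjusted p = 2.24e-10). With defactinib Cish was therefore below its unstimulated WT range of 262 to 297 CPM. Socs3, an inhibitor of IL-6 receptor signalling, fell from 573 ± 27.6 to 193 ± 31.5 CPM (-1.57, adjusted p = 0.000441). In IRF5 KO Socs3 was at 732, 741 and 219 CPM with LPS and DMSO and at 938, 1051 and 911 CPM with LPS and defactinib, and LPS raised it in these cells (3.47, adjusted p = 7.07e-06; 3.85 without IRF5 KO LPS DMSO replicate 3). Of the 13, 3 rose and 3 fell with LPS in IRF5 KO, near the 18.5% and 19% of all genes, and 3 rose and 6 fell without that library.

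Of the 12 listed target genes of STAT3 and STAT5, 7 rose and 2 fell with LPS in WT (median 0.88, against 0.00, with 20.6% and 21.2% of all genes), and 7 fell and 1 rose with defactinib (median -1.21, against 0.09, with 28.6% and 28.4%). Without IRF5 KO LPS DMSO replicate 3, which is in neither group compared, the defactinib counts were 10 and 2 at the same median of -1.21. Such a fit changes the spread for all genes, and its share of all genes is not given. Mcl1, a survival factor of the BCL2 family, fell from 518 ± 15.7 to 159 ± 28.3 CPM (log2 fold change -1.70, adjusted p = 9.18e-07). Pim1, a kinase gene of the same list, was at 858 ± 53.3 CPM with DMSO and 718 ± 119 CPM with defactinib (-0.26, adjusted p = 0.593). In IRF5 KO 3 rose and 3 fell with LPS, near the 18.5% and 19% of all genes, and 4 and 5 did without IRF5 KO LPS DMSO replicate 3.

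Other ligands that signal through these kinases were measured by 12 tested genes of 13. Several, such as Il6 with 5 to 11 counts in the unstimulated WT libraries, were tested because of their level after LPS, so their summed level is given in place of a count of calls. The 13 summed to 66.4 to 86.2 CPM in unstimulated WT, 3379 to 4133 CPM in WT LPS DMSO and 78.7 to 131 CPM in WT LPS defactinib. In IRF5 KO they summed to 56.5 to 63.1 CPM unstimulated, 840 to 1170 CPM with DMSO and 1406 to 1452 CPM with defactinib. Il12b, which encodes a subunit shared by IL-12 and IL-23, was at 2137, 2759 and 2228 CPM in WT LPS DMSO and at 65, 15.8 and 28.7 CPM with defactinib (log2 fold change -6.02, adjusted p = 4.11e-08). In IRF5 KO it was at 610, 616 and 577 CPM with DMSO and at 1079, 1017 and 1078 CPM with defactinib (0.82, adjusted p = 0.165). The defactinib libraries of the 2 genotypes thus lay on opposite sides of their DMSO libraries.

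Of the receptors for such ligands 16 of 17 were tested. With LPS in WT 4 rose and 5 fell (median -0.19, against 0.00 over all genes), near the 20.6% and 21.2% of all genes that did. With defactinib 2 rose and 7 fell (median -0.08, against 0.09), where 28.4% and 28.6% of all genes did. In IRF5 KO none of the 16 rose and 8 fell with LPS (median -0.38, against 0.01), where 18.5% and 19% of all genes did. Without IRF5 KO LPS DMSO replicate 3, 3 rose and 10 fell there. Csf2rb, the beta chain of the GM-CSF receptor that carries JAK2, was at 1305 ± 81.9 CPM in WT LPS DMSO and 1485 ± 381 CPM with defactinib (log2 fold change 0.19, adjusted p = 0.364). The other 5 JAK and STAT genes of the annotation all rose with LPS in WT (median 1.44, against 0.00), where 20.6% of all genes did, and 3 of them passed 2-fold. With defactinib in WT 2 fell and 1 rose (median -0.43, against 0.09), where 28.6% and 28.4% of all genes did, and 4 fell and none rose without WT LPS defactinib replicate 3 (median -0.86). In IRF5 KO 1 of these 5 rose with LPS, as did 18.5% of all genes. It was 3 without WT LPS defactinib replicate 3, which is in neither group compared, and 1 rose and 1 fell when replicate 3 of IRF5 KO LPS DMSO was left out.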

How the data were processed

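RNA of 18 BMDM libraries (6 groups of 3) was sequenced in pairs. Per the labels and methods, the authors aligned reads to mm10 with STAR and deposited raw counts per gene from featureCounts (version 1.6.3 in the table header; uniquely mapped pairs, reverse stranded, over exons), and used DESeq2. The authors' own comparisons were not used. Of 50600 genes, 24142 had no count. The members and gene lists were chosen with earlier results of these data known.

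From the counts, edgeR 4.0.16 (R 4.3.3) was run with TMM scaling, its expression filter (15663 genes kept) and a robust quasi-likelihood F test with 1 mean per group, with Benjamini-Hochberg adjustment over all tested genes. Genes passed at 0.05 and were called past 2-fold at an absolute log2 fold change above 1. Comparisons give the first group minus the second, and genotype is WT minus IRF5 KO. The standard error is the log2 fold change over the root of F. The test was also run on simulated counts with known changes put in for defactinib in WT, and the outcome of that run is not given here. FPKM is CPM per kilobase of exon. Ratios of counts have exact binomial intervals. Genes named were the members, Irf5, of each list the 4 tested genes with the highest mean log2 CPM (some are shown), and the 4 genes most correlated with Ifnb1, Stat2 or Stat3. Outside this rule, Ifna9 was named after its values were seen, and Siglech, Mx2 and Gm26917 were named as well. Same-numbered libraries did not deviate together (median correlation 0.00455 over 45 pairs, 4 above 0.1), so replicates were not paired. Alternatives were limma-voom (limma 3.58.1), DESeq2 1.42.0, other scalings, filters and sample sets, a fold-threshold test, a replicate block and each library left out. RefSeq windows were searched with Python 3.11.15.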

Additional observations from a re-analysis of the deposited data

Results flagged for a closer look

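The response to LPS differed between WT and IRF5 KO cells, tested as WT minus IRF5 KO by the interaction term of edgeR, for Stat2 (1.91 on the log2 scale), Stat3 (0.92) and Stat5a (2.08). Over the 18 fits that each left out 1 library, this difference passed 4, 10 and 18 times in that order. Of all genes, 9.77% had a higher and 7.35% a lower value in WT. The response to defactinib differed for Ifnar1 (-1.33), Ifnar2 (-1.13), Jak1 (-0.58), Jak2 (-0.82), Stat3 (-0.98), Stat5a (-2.89) and, in the other direction, Tyk2 (1.02). This passed in 2 of the 18 fits without 1 library for Ifnar1, in 13 for Jak1 and in all 18 for the others. Of all genes, 18.5% were lower and 18.4% higher in this difference. Groups of 3 libraries were too small for a check of single outlying values gene by gene. Over all genes, IRF5 KO LPS DMSO replicate 3 stood apart from replicates 1 and 2, at a chi-square per gene of 441 and 425 against 2.33.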

How the results depend on the processing

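Counts of members past 2-fold are given here as the alternative's count. Those against unstimulated cells include Ifnb1, whose call there follows from the filter on low counts and says nothing about stability. With library size alone as the scaling they were 1 for the difference in the response to LPS and 2 for that to defactinib. Without the expression filter they were 1 for LPS in IRF5 KO, 0 for WT against IRF5 KO with defactinib and 1 for the difference in the response to LPS. With only the compared groups fitted they were 1 for LPS in IRF5 KO and 0 for WT against IRF5 KO with defactinib, and by DESeq2 the count for defactinib in IRF5 KO was 1. A test against the fold threshold itself gave 2 for LPS in WT, 1 in IRF5 KO, 2 for defactinib in WT, 2 and 0 for WT against IRF5 KO with DMSO and defactinib, 1 and 1 for LPS with defactinib in WT and IRF5 KO, and 0 and 1 for the differences in the response to LPS and defactinib. With no fold threshold these were 7, 5, 8, 8, 4, 4 and 6 in that order, and 7 for the difference in the response to defactinib. The shares of all genes for these are those given above as higher and lower, such as 28.4% and 28.6% for defactinib in WT. For the other alternatives the share of all genes is not given, so their counts show only how the calls moved. Leaving out 1 library at a time moved the count between 1 and 3 for the difference in the response to LPS, 2 and 6 for that to defactinib, 0 and 1 for defactinib in IRF5 KO, 1 and 2 for LPS in IRF5 KO and 0 and 1 for WT against IRF5 KO with defactinib. The cause was not tested.

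The replicate block, which pairs libraries by number only, gave 3 members for the difference in the response to LPS and 5 for that to defactinib and the same counts elsewhere. Jak1 did not pass under it for LPS with defactinib in WT (0.34, adjusted p = 0.0573 from edgeR), and Ifnar1 passed for the difference in the response to LPS (1.45, adjusted p = 0.0466). Stat2 with LPS in IRF5 KO turned to -0.10.

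Values that turned sign had not passed with all libraries. Without IRF5 KO LPS DMSO replicate 3, Ifnar1 with defactinib in IRF5 KO passed in the turned direction (0.68, adjusted p = 0.00438 from edgeR). The same held for Stat3 in WT against IRF5 KO with defactinib, without WT LPS defactinib replicate 3 (-0.26, adjusted p = 0.0295). With library size alone, which shifts the median of all genes by -0.38 for LPS in WT and by 0.29 for defactinib in WT, these were Ifnar1 with LPS in WT (-0.10), Stat2 (-0.14) and Stat3 (-0.10) with LPS in IRF5 KO, Jak2 with defactinib in IRF5 KO (-0.08), Ifnb1 (-0.04), Ifnar1 (-0.06) and Ifnar2 (-0.11) between unstimulated genotypes, and with LPS plus defactinib Jak2 in WT (-0.05) and Tyk2 (-0.10) and Stat3 (-0.07) in IRF5 KO. Ifnar2 between unstimulated genotypes was -0.02 without the filter and -0.01 at 5 CPM in 3 libraries, and limma-voom gave -0.15 for Stat2 with LPS and 0.04 for Ifnar1 with defactinib in IRF5 KO. Leaving out 1 library, the unstimulated genotype difference spanned -1.68 to 1.71 for Ifnb1, -0.01 to 0.08 for Ifnar1, -0.06 to 0.04 for Ifnar2 and -0.17 to 0.04 for Stat5a. With LPS, Tyk2 in WT spanned -0.14 to 0.01, and in IRF5 KO Stat2 spanned -0.70 to 0.33 and Ifnar2 -0.18 to 0.02. With defactinib in IRF5 KO, Ifnar1 spanned -0.56 to 0.68, Stat5a -0.62 to 0.25 and Tyk2 -0.24 to 0.00. WT against IRF5 KO with defactinib spanned -0.23 to 0.81 for Ifnb1, -0.12 to 0.17 for Ifnar1 and -0.26 to 0.33 for Stat3. LPS with defactinib in WT spanned -0.87 to 0.27 for Stat2, -0.02 to 0.28 for Jak2 and -0.15 to 0.43 for Stat3. The difference in the response to LPS spanned -0.41 to 2.98 for Ifnb1, 0.00 to 0.23 for Jak2 and -0.01 to 0.22 for Jak1. The Ifnb1 values that involve unstimulated groups rest on 1 count in each genotype and say nothing about stability.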
